A study of Homo sapiens with 6 samples.

Results

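The unperturbed transcriptome of H7, an established line of human embryonic stem cells, was described from its 3 control samples. The study holds 6 RNA sequencing samples of this line, 3 with the control genotype and 3 in which the RNA-binding protein SAMD4A was knocked down. Its stated question concerns the role of SAMD4A in self-renewal and in the choice of lineage, and the 3 knockdown samples were not used here. All cells were grown on Matrigel in mTeSR Plus medium, and libraries were made from total RNA of integrity above 7.0 with a stranded kit that selects messenger RNA. The labels give the control cells no further treatment and do not say what construct, if any, they carry, nor whether the 3 samples were separate cultures, so the spread given here may be partly technical.

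The genes described were chosen by level. For each library, the deposited read counts were divided by the exon length listed for each gene and scaled to a common total per library, which gives transcripts per 1000000 (TPM), a level per length. How the listed lengths were made is not known, and 19.4% of expressed coding genes were listed at over 3 times the median length of their GENCODE 29 transcripts, so the order of levels between genes depends on the length used, whereas the libraries share each gene's length. A gene was counted as expressed at 1 TPM or more in every one of the 3 libraries. This held for 14701 of the 36842 protein-coding and long non-coding RNA (lncRNA) genes in the table, of which 12978 were protein-coding (65.0% of 19966) and 1723 were lncRNAs (10.2% of 16876). The libraries held 19896813, 19270688 and 20070027 counts, and 15546, 15501 and 15468 genes of these types reached 1 TPM in them. A count of 3 in a library corresponds to 0.266 TPM for POU5F1, whose listed length is 1409 bases, and to 0.0416 TPM for SOX11, listed at 9002 bases, so levels far under 1 TPM rest on a handful of reads. No groups were compared and no test was made: each value is the mean over the 3 libraries with its standard deviation (SD).

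Human embryonic stem cells grown in this kind of medium are in the primed state, which resembles the epiblast shortly before gastrulation. The transcription factors POU5F1 (also known as OCT4), SOX2 and NANOG maintain this state together and hold back lineage genes, and the RNA-binding protein LIN28A, the L1TD1 protein and the DNA methyltransferase DNMT3B are characteristic of it. Before differentiation starts, many regulators of later lineages are kept silent but can be switched on quickly, and the cells divide rapidly with a high output of ribosomes.

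All 6 of these stem cell markers were expressed, at levels that spanned much of the range of the transcriptome. POU5F1 (ENSG00000204531, chromosome 6) had 3039, 2941 and 2854 TPM in the 3 libraries, a mean of 2945 ± 92.3 TPM (SD, n = 3) and rank 26 of all expressed genes. LIN28A, which binds messenger RNAs and blocks maturation of let-7 microRNAs, stood at 1145, 1232 and 1167 TPM and at rank 86. DNMT3B, which adds methyl groups to DNA de novo, had 754, 758 and 754 TPM. These levels put all 3 genes among the 140 most abundant, and the libraries differed little. L1TD1, an RNA-binding protein derived from a LINE-1 element, had 549, 576 and 596 TPM. SOX2, the partner of POU5F1 on DNA, had 361, 352 and 352 TPM and rank 381. NANOG was the lowest of the 6, with 36.9, 38.1 and 39.8 TPM and rank 4451. The level of NANOG depended on the length used: with the median length of its GENCODE 29 transcripts (870 bases) in place of the listed 5182 it came to 129 ± 4.64 TPM, while the other 5 markers came out lower, POU5F1 at 1904 ± 65.0 TPM.

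**Figure D1:**
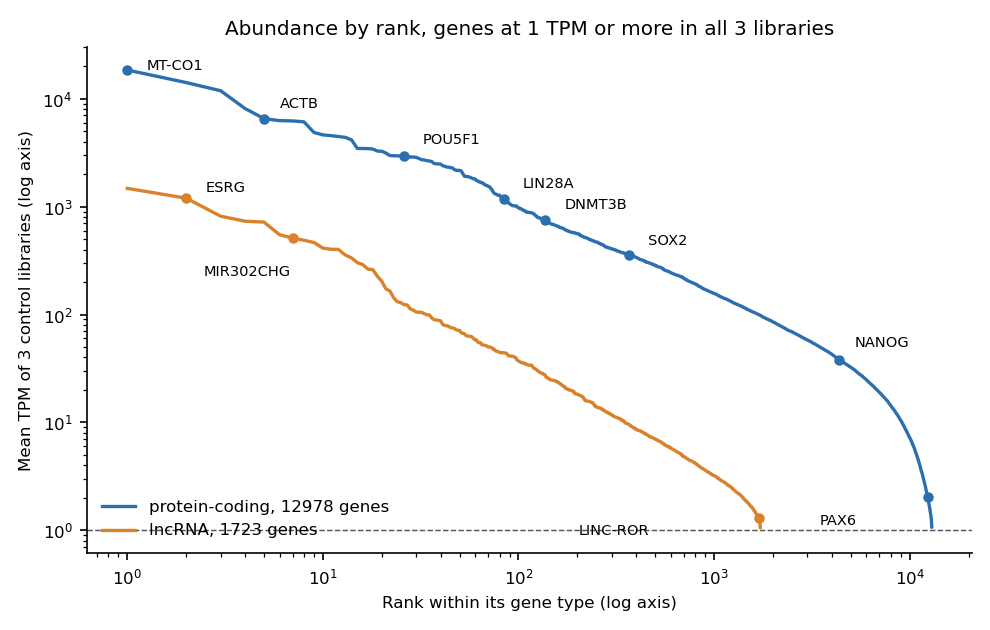
Mean TPM of the 3 control libraries (log axis) against rank within the gene type (log axis) for 12978 protein-coding and 1723 lncRNA genes; points mark named genes and the dashed line is 1 TPM. POU5F1 lies at 2945 TPM near the top of the coding curve and NANOG at 38.3 TPM and rank 4354, and the lncRNA curve runs below the coding curve at every rank.

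Of the wider list of 30 core pluripotency genes, 29 were expressed. A level of 10 TPM was reached in every library by 28 of them, and 100 TPM by 20. Surface and adhesion molecules were abundant: PODXL, the sialomucin that carries the TRA-1-60 epitope, had 1016, 999 and 940 TPM, EPCAM had 373 ± 27.0 TPM and the epithelial cadherin CDH1 had 176 ± 1.74 TPM. The NODAL co-receptor TDGF1 had 582 ± 10.2 TPM, whereas its ligand NODAL had 7.85, 5.70 and 5.46 TPM. Among transcription factors, ZSCAN10 had 353 ± 10.2 TPM, ZFP42 (REX1) had 168 ± 4.28 TPM and SALL4 had 135 ± 2.73 TPM. The chromatin-associated proteins DPPA4 and DPPA2, which act as a pair, were far apart, at 684 ± 27.2 and 14.6 ± 3.12 TPM, and DPPA2 was the one gene of the list with a spread over 20% of its mean. TERT, the catalytic subunit of telomerase, was expressed at 15.2, 12.9 and 13.7 TPM, and UTF1 at 39.1 ± 6.82 TPM. The single member that missed the threshold was DPPA5, with 1.45, 1.89 and 0.181 TPM from 8, 10 and 1 counts. The core list summed to 12985, 13095 and 12883 TPM, a CV (SD over mean) of 0.817%.

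All 20 genes of the list for the primed state were expressed, 14 of them at 100 TPM or more in every library. CD24, a surface glycoprotein used to tell primed from naive cells, had 2054, 2183 and 2263 TPM. The retinoic acid-binding protein CRABP1 had 789 ± 37.9 TPM, the WNT antagonist SFRP2 had 575 ± 31.4 TPM, the WNT receptor FZD7 had 300 ± 12.7 TPM and the surface protein THY1 had 261, 254 and 253 TPM. With the median transcript length THY1 came to 1123 ± 21.2 TPM. The transcription factors ZIC2 and OTX2 had 202 ± 0.942 and 30.8 ± 1.63 TPM. The lowest members were CYTL1 at 7.04 ± 1.38 TPM and HMX2 at 2.48 ± 0.280 TPM.

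The list for the naive state, which corresponds to the earlier pre-implantation epiblast, was mostly low. It had 20 listed symbols and 19 genes in the table, because ALPPL2 is an older symbol of ALPG, which was listed as well. Of the 19, 8 were expressed, 9 were under 1 TPM in all libraries and 2 were mixed, and the whole list summed to between 58.6 and 61.0 TPM. The transcription factor KLF17 had 0, 0 and 1 counts, DPPA3 had 3, 3 and 6 counts and 0.440 ± 0.184 TPM, and DNMT3L had 0.148 ± 0.137 TPM. The transcription factors KLF4 and KLF2 stood at 3.55 ± 0.844 and 1.68 ± 0.305 TPM, TFCP2L1 at 5.03 ± 0.479 TPM and KLF5 at 5.48 ± 0.842 TPM. The highest member was TFAP2C, at 20.6, 22.1 and 20.4 TPM, a factor that is also listed for the germline and for trophoblast. In bulk samples of this kind, fewer cells expressing a gene and less RNA per cell cannot be told apart.

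Over 9 lists of lineage regulators and markers, which hold 189 genes when each is counted once, 98 were under 1 TPM in all 3 libraries (51.9%, against 32.0% of all coding genes), 79 were expressed and 12 were mixed. Of the 98, 26 had no count in any library. In the 49 genes of the core and primed lists together none was under 1 TPM in all libraries. All these lists were chosen with earlier results of these data known, so the contrast is a description only. The lists differed in how many members were on. Trophoblast and amnion genes had 18 of 26 under 1 TPM, endothelium and blood 16 of 22, cardiac and other mesoderm 14 of 20, germline 13 of 19, definitive endoderm 11 of 19, primitive streak 10 of 20, neuroectoderm 9 of 28, epidermis and neural crest 8 of 20, and fibroblast and matrix 4 of 21.

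The defining regulators of the primitive streak and of definitive endoderm were low. TBXT (brachyury), a T-box factor of nascent mesoderm, had 0.537, 0.112 and 0.214 TPM, EOMES had 0.147, 0.267 and 0.256 TPM, and GSC had 0.945, 0.219 and 1.05 TPM. MIXL1 was above the threshold, at 1.89, 2.35 and 2.07 TPM, as were the NODAL antagonist CER1 at 3.72 ± 0.446 TPM and FGF8 at 2.79 ± 0.768 TPM. FOXH1, the DNA-binding partner of SMAD2 and SMAD3 in NODAL signalling, was much higher, at 136, 131 and 121 TPM. In the endoderm list, SOX17 had 0.155 ± 0.102 TPM, FOXA2 had 0.225 ± 0.106 TPM, GATA6 had 0.111 ± 0.116 TPM and GATA4 stayed at the threshold with 1.02, 1.09 and 0.874 TPM. Its 2 members over 10 TPM were the forkhead factor FOXA3 at 51.7 ± 3.46 TPM and the receptor KIT at 17.6 ± 1.31 TPM.

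Neural genes were mostly at low levels. Of the 28 listed genes 19 were expressed, a share near the 65.0% of all coding genes. Their median was 2.76 TPM, between 0.0928 TPM for the trophoblast list and 13.2 TPM for the fibroblast and matrix list. NES, an intermediate filament of neural progenitors, had 156 ± 6.91 TPM, and the SOX factors SOX3 and SOX11 had 60.9 ± 2.13 and 37.2 ± 1.39 TPM. The eye-field and forebrain factors SIX3, LHX2, RAX and PAX6 formed a lower tier, with SIX3 at 4.68 ± 0.231 TPM, LHX2 at 4.72 ± 0.477 TPM and PAX6 at 1.70, 1.86 and 2.53 TPM. Below the threshold stood SOX1 at 0.213 ± 0.0680 TPM, and the proneural factor NEUROG2 had a mean of 0.0174 TPM.

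In the mesodermal lists, the VEGF receptor KDR had 65.3, 54.7 and 52.7 TPM and the angiopoietin receptor TEK had 21.02 ± 0.0371 TPM. Of the 22 endothelial and blood genes 5 were expressed: TEK, its relative TIE1 at 8.47 ± 1.31 TPM, and the transcription factors LMO2 at 8.39 ± 1.48 TPM, ERG at 1.86 ± 0.166 TPM and SOX18 at 1.86 ± 0.509 TPM. Among the low ones, PECAM1 had 9, 0 and 3 counts, CD34 had 0.300 ± 0.0395 TPM and RUNX1 had 0.414 ± 0.0812 TPM. In the trophoblast and amnion list, CDX2 had 0, 1 and 0 counts, ISL1 had 1, 0 and 0, and TFAP2A had 1, 3 and 1. GATA3 was at the threshold with 1.28, 1.29 and 0.931 TPM. The epithelial keratins of that list, KRT18 and KRT8, were abundant, at 842 ± 15.3 and 539 ± 7.63 TPM, beside a summed level of the whole list of 1452 ± 22.4 TPM. The matrix list had 17 of 21 members expressed, with VIM at 304 ± 15.9 TPM, COL1A1 at 95.8, 86.5 and 82.6 TPM and COL1A2 at 70.5 ± 1.54 TPM. Its members DCN and LUM, proteoglycans typical of fibroblasts, were at or near 0: DCN had no count in any library, where 3 counts would be 0.0546 TPM, LUM had 0, 0 and 3 counts, and COL3A1 had 1.243, 1.249 and 1.111 TPM. Germ cell genes were similarly low, with DDX4 at 0.0706 ± 0.0480 TPM and DAZL at 1.92 ± 0.264 TPM.

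**Figure D2:**
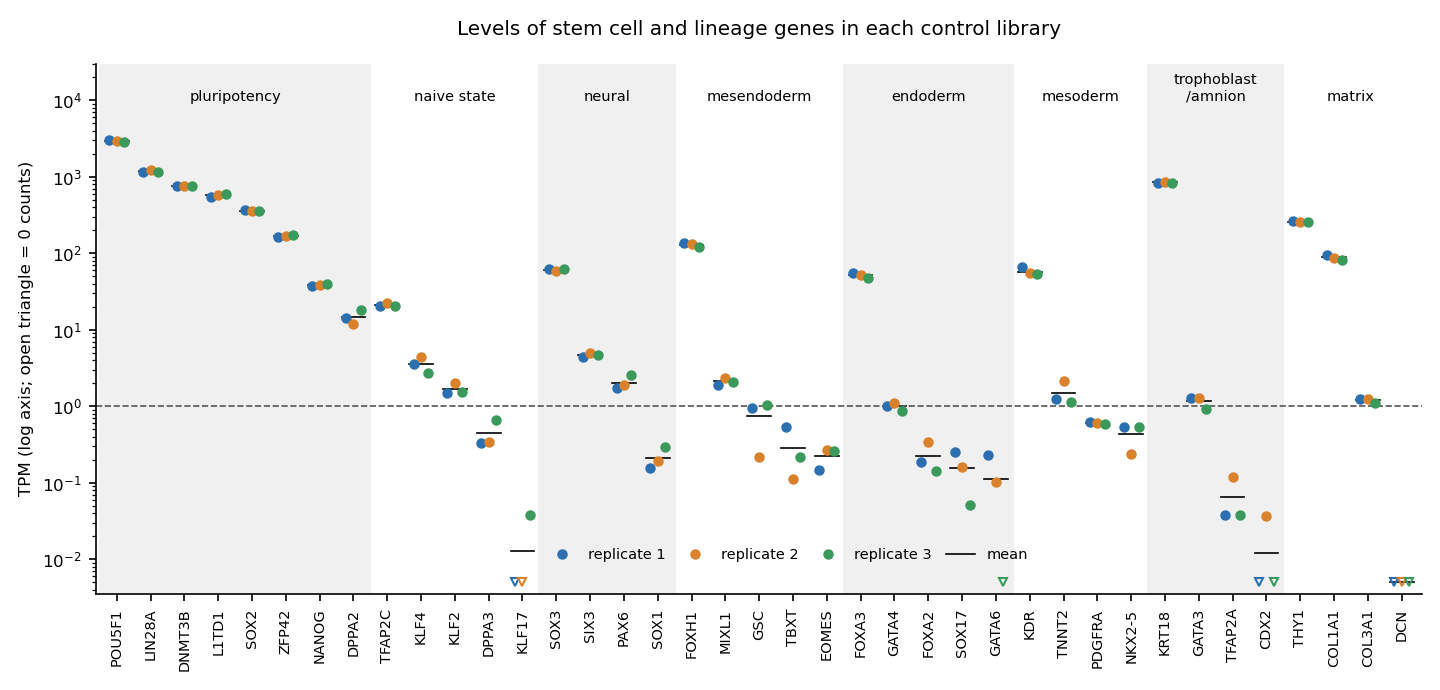
TPM (log axis) of stem cell and lineage genes in each of the 3 control libraries, with black bars for means, the dashed line at 1 TPM, and open triangles for libraries with 0 counts. Pluripotency genes lie between 11.8 and 3039 TPM with the 3 libraries close together, while lineage regulators such as TBXT, SOX17 and CDX2 lie under the line, rest on few counts and scatter widely.

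Complete gene families of developmental factors and differentiated cells ranged from silent to mostly on. None of 39 HOX genes, which pattern the body axis, was expressed, and 31 had no count in any library. None of 6 GATA factors passed, and 1 of 14 TBX genes (TBX6, 6.10 ± 1.67 TPM) and 1 of 9 PAX genes (PAX6) did. Of 390 olfactory receptor genes 1 was expressed, OR2B6 at 16.8 ± 3.23 TPM, and 356 had no count. Other developmental families were more often on, with 27 of 52 FOX genes, 4 of 8 LHX genes and 4 of 6 genes of the SIX3 family expressed. None of 94 keratin-associated protein genes and none of 38 beta-defensin genes was expressed. Of 50 keratins 5 were expressed, led by KRT18, KRT8 and KRT19 (252 ± 11.3 TPM). In contrast, 430 of 515 genes of the ZNF zinc finger series were expressed, with a median of 9.15 TPM over the whole class. NKX1-2, a homeobox factor, stood out among the NKX genes at 44.7 ± 0.795 TPM, where 3 of 14 were expressed.

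Abundance was concentrated in few genes. The 10 most abundant held 8.71% ± 0.172 of all TPM (SD, n = 3), the 100 most abundant held 27.4% ± 0.183 and the 1000 most abundant 57.1% ± 0.153, and 634 genes were enough for 50%. Levels of 1000 TPM or more in every library were reached by 93 coding genes and 2 lncRNAs. The median expressed coding gene stood at 21.8 TPM and the median expressed lncRNA at 3.79 TPM, and coding genes made up 93.6% of the TPM, lncRNAs 2.76% and processed pseudogenes 2.18%.

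The top of the ranking belonged to respiration, translation and the cytoskeleton. The 13 messages of the mitochondrial genome held 7.77% ± 0.179 of the TPM, led by the cytochrome oxidase subunit MT-CO1 at 18724, 17860 and 18711 TPM. Cytosolic ribosomal proteins were expressed in 83 of 85 cases and held 11.7% of the TPM. Of these genes 44 had 1000 TPM or more in every library, and RPS2 was first at 6259 ± 326 TPM. The elongation factor EEF1A1, which brings aminoacyl-tRNA to the ribosome, had 6319, 6167 and 6174 TPM. The cytoplasmic actins ACTB and ACTG1 had 6537 ± 111 and 2882 ± 91.3 TPM. Glycolysis was represented near the top by GAPDH at 6104 ± 164 TPM and ENO1 at 2902 ± 70.3 TPM. Also among the leading 25 coding genes were the thymosin TMSB4X, the profilin PFN1, the nucleolar protein NPM1 and the ferritin light chain FTL. The architectural chromatin protein HMGA1 stood at rank 12, at 4636, 4356 and 4376 TPM.

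Genes of cell division were on throughout: all 24 S phase genes were expressed, among them the helicase subunit MCM7 at 451 TPM, and 22 of 23 genes of G2 and mitosis, among them the ubiquitin-conjugating enzyme UBE2C at 294 TPM. The list for the integrated stress and unfolded protein responses holds genes of amino acid synthesis and transport and chaperones of the endoplasmic reticulum. All 24 were expressed, 17 of them at 100 TPM or more in every library. The serine synthesis enzyme PHGDH had 1113, 1131 and 1060 TPM, and DDIT4, an inhibitor of mTORC1, had 820, 853 and 773 TPM. The interferon-stimulated list had 18 of 21 members expressed but OAS1, IFIT2 and IFIT3 stayed under 1 TPM, while IFITM3 stood at 357 TPM. Of all coding genes 65.0% were expressed, and passing the threshold does not show that a response was active. SAMD4A itself, the target of the study's knockdown, had 18.4, 19.8 and 17.6 TPM in these controls, below its paralogue SAMD4B at 102 ± 7.44 TPM.

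Within families, one member often held most of the RNA. Of 103 families defined by shared sequence or function, 26 had a leading gene with 90% or more of the family's summed TPM, 54 had a leader with 50 to 90% and 23 had none with 50%. The median leader held 68.1%, and the same gene led in all 3 libraries in 100 families. The 3 exceptions were the glutathione peroxidases, RAS and the RB family. Dividing counts by length mattered for 15 families, since 88 of 103 kept their leader when raw counts were compared. The length itself mattered for 22, since 81 kept their leader with the median transcript length in place of the listed one, an alternative added after the data were seen.

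POU5F1 held 97.6% ± 0.0640 of the POU factor family of 15 genes, with the next, POU3F1, at 26.8 ± 2.01 TPM. LIN28A held 92.1% ± 0.327 over LIN28B (101 ± 5.63 TPM). DNMT3B held 79.3% ± 0.257 of the DNA methyltransferases, ahead of the maintenance enzyme DNMT1 at 153 ± 2.80 TPM and DNMT3A at 43.6 ± 0.473 TPM. With the median transcript length that order turned round, with DNMT1 at 620 ± 13.3 TPM and 54.7% of the family and DNMT3B at 448 ± 1.35 TPM. Among the TET dioxygenases, which oxidise methylated cytosine, TET1 held 69.1% ± 1.44. SOX2 led the 19 SOX factors with 40.4% ± 0.313, ahead of SOX13 and SOX4 at 146 ± 5.96 and 144 ± 7.00 TPM. MYCN held 52.7% ± 1.07 of the MYC family and MYC 38.9%, an order that turned round by raw counts and with the median transcript length, where MYC held 56.9%. FGF2, the growth factor on which primed cells depend, held 54.3% ± 0.118 of the 22 genes named FGF, and FGF19 followed at 44.9 ± 3.04 TPM. That family was taken by symbol, not by whether a member is a secreted ligand. With the median transcript length FGF13 led these FGF genes, at 130 ± 4.81 TPM and 51.8%, and FGF2 held 28.4%. FGFR1 held 58.5% ± 0.999 of the FGF receptors.

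Structural and metabolic families ranged as widely. GJA1 (connexin 43) held 92.3% ± 0.334 of the connexins, PKM 99.8% of the pyruvate kinases, HMGA1 97.1% of the HMGA pair and EEF1A1 99.0% of the elongation factor 1A pair. CLDN6, the claudin of early embryonic epithelia, held 63.9% ± 1.18 of the claudins. With the median transcript length these 5 genes still led, GJA1 with 77.1% and CLDN6 with 49.3%. The ribosomal protein paralogues RPL22 and RPL22L1 were nearly even, at 104 ± 4.87 and 97.04 ± 9.98 TPM, and RPL26L1 stood at 73.3 ± 4.37 TPM beside RPL26 at 119 ± 7.37 TPM. The 3 IGF2BP messenger RNA-binding proteins shared the family, IGF2BP1 with 39.0% and IGF2BP3 with 37.0%.

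**Figure D3:**
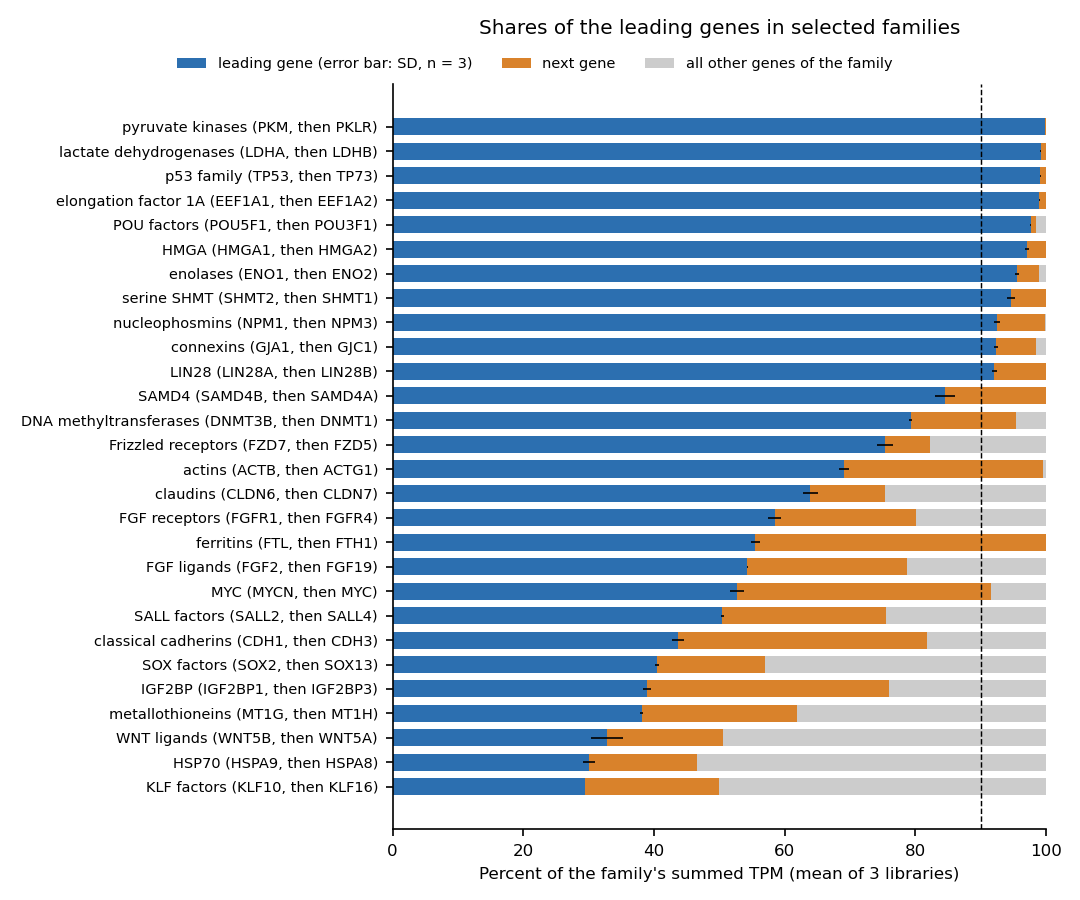
Share of each family's summed TPM held by its leading gene (blue, error bar SD, n = 3), the next gene (orange) and all others (grey) in 28 of the 103 families, chosen for the text; the dashed line is 90%. Families such as POU factors, with 97.6% in POU5F1, stand at the top, and KLF factors, where KLF10 has 29.5%, at the bottom. With the median transcript length another gene leads the KLF factors (KLF13), the DNA methyltransferases, MYC, classical cadherins and ferritins. The same holds for the family labelled FGF ligands, which holds all genes named FGF.

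Some shares touch genes that the counting could have split. Where 90% or more of a coding gene lay inside another coding gene on the same strand, 489 of 1087 genes were expressed with a median of 7.83 TPM among them, compared with 11712 of 17226 and 23.035 TPM where nothing overlapped. ALDOA, an abundant glycolytic enzyme in most cells, stood at 3.27 ± 0.860 TPM and 99.3% of it lay inside another gene, so the 96.3% held by ALDOC in the aldolases (itself fully overlapped) may not describe the family. EIF4A1 stood at 5.71 ± 1.56 TPM with 95.3% inside the read-through gene SENP3-EIF4A1. The mitochondrial enzyme SDHA at 1.28 ± 0.354 TPM and the mitotic protein NUSAP1 at 0.179 ± 0.0803 TPM were each over 99% overlapped. Among the low mesoderm genes PDGFRA was overlapped by 95.7%. The part that overlap had in these low values was not tested.

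The abundant lncRNAs included hosts of small RNAs and transcripts named after stem cells. SNHG29, a host of small nucleolar RNAs, was first at 1425, 1500 and 1501 TPM, and 23 of 29 SNHG genes were expressed, with GAS5 at 719 ± 14.7 TPM and SNHG14 at 488 ± 8.43 TPM. ESRG, a lncRNA found at high levels in human pluripotent cells, was the second at 1238, 1185 and 1167 TPM. CCDC144NL-AS1 had 815 ± 33.4 TPM, LINC00678 549 ± 20.02 TPM, FOXD3-AS1 402 ± 17.9 TPM and LNCPRESS1 401 ± 34.2 TPM, while LINC-ROR stood at 1.29 ± 0.139 TPM. Of the 15 most abundant, 4 had no symbol in the table, the first of them ENSG00000254339 on chromosome 8 at 732 ± 36.3 TPM.

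MIR302CHG, host of the miR-302/367 cluster on chromosome 4, had 483, 521 and 528 TPM, the highest of 23 expressed microRNA host genes. Next came MIR124-1HG at 113 ± 5.34 TPM, and MIR17HG, host of the miR-17 to miR-92 cluster, had 20.3, 19.3 and 25.4 TPM. These values measure the long host transcript, not the mature microRNAs, which libraries of this kind do not hold. The mature 3′ arms of the miR-302/367 cluster are shown with 2 from the miR-17 cluster for comparison of their seeds (RefSeq, GRCh38.p14; bases 2 to 8 in capitals):

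hsa-miR-302a-3p: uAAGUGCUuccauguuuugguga

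hsa-miR-302b-3p: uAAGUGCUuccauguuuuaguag

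hsa-miR-302c-3p: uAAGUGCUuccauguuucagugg

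hsa-miR-302d-3p: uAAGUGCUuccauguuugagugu

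hsa-miR-367-3p: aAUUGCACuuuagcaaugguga

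hsa-miR-17-5p: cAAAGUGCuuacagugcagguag

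hsa-miR-92a-3p: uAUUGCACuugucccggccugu

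The 4 miR-302 members share one seed. miR-367-3p has the same seed as miR-92a-3p, and the miR-17-5p seed matches that of miR-302 shifted by 1 base.

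Promoter sequence differed in composition between expressed and low genes, as a description with no test. RefSeq windows from 250 bases before to 50 bases after the annotated start (GRCh38.p14) were available for 15143 protein-coding genes, 10437 of them expressed. The CpG ratio, the number of CG pairs over that expected from the C and G content, had a median of 0.840 in expressed genes and 0.303 in genes under 1 TPM in all libraries. Under a ratio of 0.2, 19.5% of 1859 genes were expressed, and at 1 or more 90.1% of 1806. The median level of the expressed genes rose with it too, from 7.37 to 32.1 TPM. The low lineage genes were intermediate, with a median of 0.644 in the 65 that had a window, and HOX genes were high, at 0.869 in 20, whereas olfactory receptors had 0.121. The sequence TATAAA within 50 bases before the start, on the gene's strand, was present in 1.72% of expressed and 9.14% of low genes, against 3.94% of all.

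**Figure D4:**
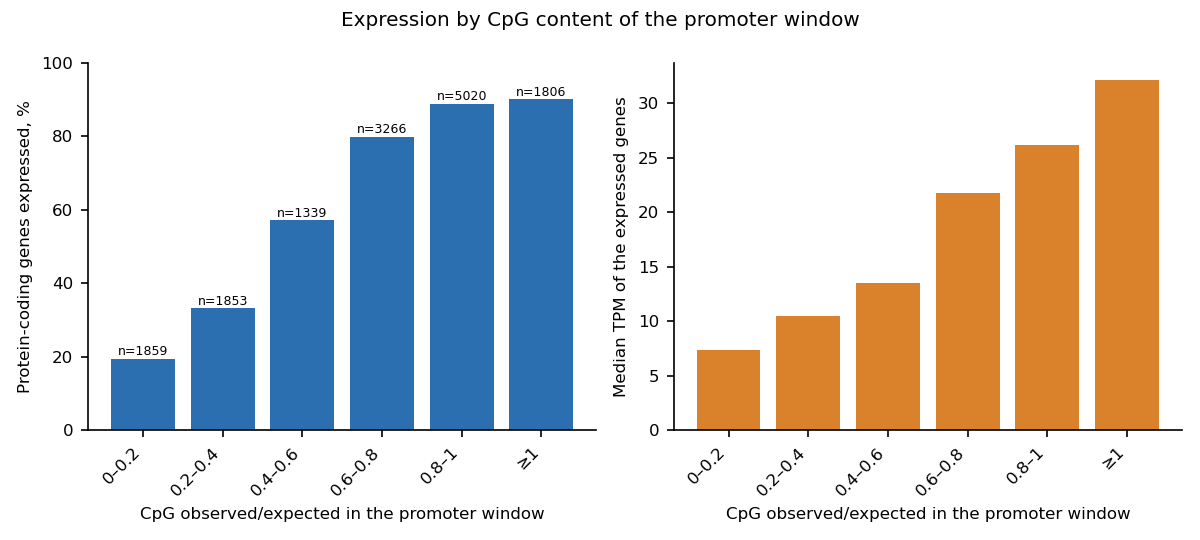
Share of protein-coding genes expressed (left, with the number of genes in each bin) and median TPM of the expressed ones (right) by CpG observed-to-expected ratio of the RefSeq promoter window. The share rises from 19.5% in the lowest bin to 90.1% in the highest and the median level from 7.37 to 32.1 TPM.

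The start sites of the translation genes had a further common feature. Cytosolic ribosomal protein genes are known for a tract of C and T bases at the start of their messenger RNAs, through which their translation is controlled. A run of 5 or more C or T bases covering the annotated first base, on the gene's strand, was present in 46 of the 67 expressed ribosomal protein genes with a window (68.7%), in 31 of 70 of the 100 most abundant coding genes with a window (44.3%) and in 8.13% of all coding genes. The 30 bases around the start (15 before and 15 from it) are shown for 4 ribosomal proteins, elongation factor EEF1A1 and the chromatin protein HMGA1, which have such a run, and for SOX2 and NANOG, which do not. The run is in capitals:

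RPLP0 at chr12:120201097-120201126, minus strand: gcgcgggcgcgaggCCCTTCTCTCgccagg

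RPL3 at chr22:39319609-39319638, minus strand: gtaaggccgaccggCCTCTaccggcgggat

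RPS18 at chr6:33272060-33272089, plus strand: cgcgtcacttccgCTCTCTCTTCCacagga

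RPL12 at chr9:127451392-127451421, minus strand: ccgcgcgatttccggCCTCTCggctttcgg

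EEF1A1 at chr6:73521018-73521047, minus strand: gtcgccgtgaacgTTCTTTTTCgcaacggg

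HMGA1 at chr6:34236858-34236887, plus strand: tgcccctgggtcgCTCTTTTTaagctcccc

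SOX2 at chr3:181711910-181711939, plus strand: agcccccgtcacatggatggttgtctatta

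NANOG at chr12:7789387-7789416, plus strand: gatagagccttcattataaatctagagact

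Of coding genes with a window, 8.88% of the expressed and 6.51% of those under 1 TPM in all libraries had the run. It was not in every abundant gene: GAPDH, ENO1 and TUBA1B, at 6104, 2902 and 2170 TPM, had none, nor did the lncRNA SNHG29. The genes shown stood at 4621, 4384, 3460, 3447, 6220, 4456, 355 and 38.3 TPM in the order shown. A run of these bases is a description of the annotated start, and the start used in these cells was not measured.

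The 3 libraries were close to each other. For each pair, Pearson's r over genes on log2 TPM was 0.992 to 0.993, a description across genes, which are not independent replicates. The CV had a median of 6.41% over expressed genes. The counting error, taken as 1 over the square root of the mean count, had a median of 4.39%. The CV fell with level, from 16.8% for genes of 1 to 2 TPM to 3.15% for those over 1000 TPM. The counting error of these bins was 17.5% and 0.731%. As the CV fell below it in the lowest bin, the 2 measures are only roughly comparable. The biological coefficient of variation, which sets counting error aside, was 5.34% by edgeR, and from 4.15% to 6.62% when one library was left out.

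Among 9479 genes with a mean of 10 TPM or more, 81 had a CV over 20%, of which 46 were coding and 35 lncRNA. The most variable was BOLA2B, one of a near-identical pair, with 10, 7 and 348 counts. SMN1, which shares 76.1% of its sequence windows of 100 bases with other genes, had 331, 1193 and 327 counts, against 198, 234 and 266 for its copy SMN2. U2AF1L5 had 432, 177 and 149. Summed over copies, SMN1 and SMN2 still varied by 61.3% and U2AF1 and U2AF1L5 by 43.8%. BOLA2, the copy of BOLA2B, had no count, so that pair varied as much as BOLA2B alone. What moved these sums was not tested, and the values are uncertain. Genes near the threshold were decided by few counts: NOG, just inside, had 16, 28 and 24 counts and a lowest level of 1.001 TPM, and TLR2, just outside, had 30, 40 and 33 counts and a lowest level of 0.999 TPM. Their neighbours were RELA-DT and GUCA1B inside, with lowest levels of 1.001 and 1.002 TPM, and LINC02731 and ENSG00000222043 outside, both at 0.9996 TPM.

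Many histone genes were lowest in replicate 3. The 67 replication-linked and H1 histone genes, a class chosen after several of them were seen among the variable genes, summed to 3834, 3535 and 2686 TPM, a CV of 17.8%. Of the 11 with a mean of 10 TPM or more, 9 were highest in replicate 1 and 10 were lowest in replicate 3. Over all expressed genes at that level, 33.4% were highest in replicate 1 and 34.5% were lowest in replicate 3. Of all 27 expressed members 17 were lowest in replicate 3 and 5 were highest there, among them H4C4 at 3.86, 4.95 and 8.31 TPM. As the class was chosen on these values, the counts are a description. H2BC12 had 483, 430 and 285 TPM, and H2AC6 had 1479, 1405 and 1056 TPM. The metallothioneins, which bind zinc and copper, were also lowest in replicate 3, with MT1G at 698, 713 and 560 TPM and MT1H at 436, 459 and 333 TPM, and the whole list of metallothioneins and zinc genes summed to 1903, 1976 and 1568 TPM. In the same libraries the S phase list summed to 3047, 3040 and 3128 TPM. How fully the kit, which selects messenger RNA, takes up histone messages was not tested. The histone levels are therefore those in the libraries and may differ from those in the cells. No cause of the differences between libraries was tested.

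**Figure D5:**
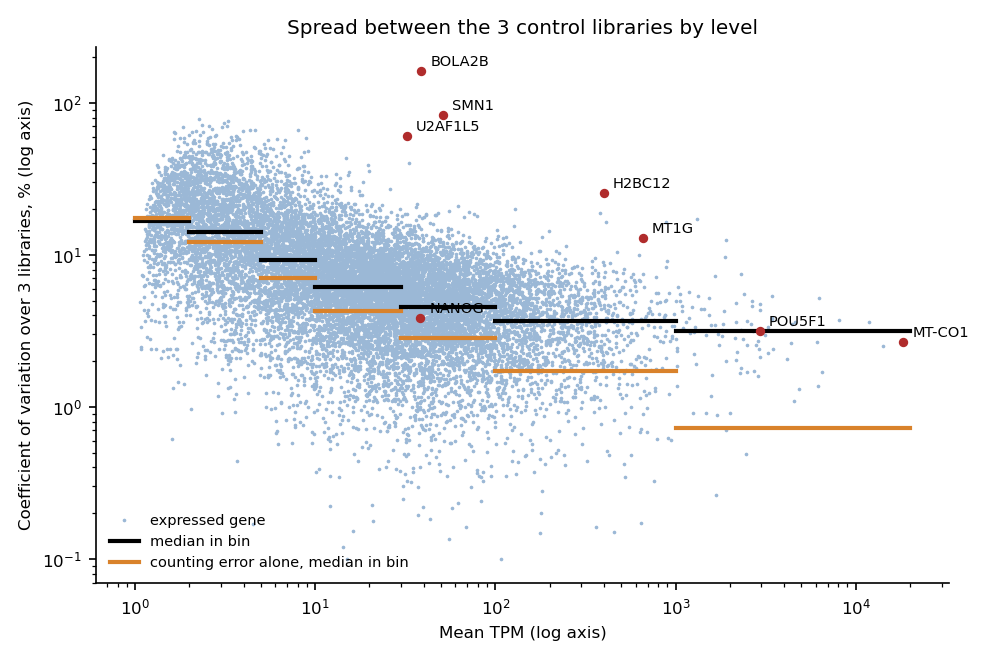
Coefficient of variation over the 3 control libraries (log axis) against mean TPM (log axis) for each expressed gene, with the median in bins of level (black) and that of counting error alone (orange). Most genes lie under 20% and the median falls to 3.15% at the top, while BOLA2B, SMN1, U2AF1L5 and H2BC12 lie far above their bins.

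Chromosomes differed in the share of coding genes expressed, from 51.9% of 235 on chromosome 21 to 70.6% of 853 on chromosome 16, and chromosomes 11 and X were also low, at 56.5% and 58.1%.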

How the data were processed

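Libraries were made from total RNA with a stranded messenger RNA kit, per the labels' protocols. The deposited table holds raw read counts per gene as made by the authors, with HISAT2, HTSeq and the GRCh38 build named in the submitters' processing notes. The versions, the handling of strand and the making of the listed exon length were not given in the sources used here. That length equals the longest GENCODE 29 transcript in 4.10% of expressed coding genes. A read in overlapping genes or near-identical copies may be lost or split, which was not tested. Total counts per library ran from 19270688 to 20070027. Intervals and floors (3 counts) cover counting error only.

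From the counts, TPM was computed per library over all genes of the table as count over listed length, scaled to 1000000, with Python 3.11.15, pandas 2.3.3 and NumPy 2.4.6. The threshold was 1 TPM in each of the 3 libraries. The biological coefficient of variation came from edgeR 4.0.16 (R 4.3.3, TMM factors, intercept only); DESeq2 1.42.0 size factors served as an alternative. No group was compared and no test was made. The 3 control columns were matched to samples by title, and the table holds 0 columns of samples outside the series. The estimate of the biological coefficient of variation was tested on simulated counts, and the search for shared sequence windows on random sequences.

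The members and lists were chosen with earlier results of these data known. Genes named are those of the fixed lists and families, the 25 coding and 15 lncRNA genes highest in mean TPM, the 15 expressed genes with the largest CV at a mean of 10 TPM or more and the 3 nearest the threshold on each side; a few others named for a class (a family's leader, histones, microRNA hosts) were picked after their values were seen. Y-linked genes are not named, and a few other genes are not reported here. Sequences are from RefSeq tables. Alternatives tried were the TPM threshold, CPM, a count minimum of 10, the denominator, effective and median transcript lengths, TMM and DESeq2 scaling, and leaving out each replicate.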

Additional observations from a re-analysis of the deposited data

How the results depend on the processing

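No paired analysis was possible because only 1 group is described and no result comes from a test. Of 64 alternative values for the 6 summary results, 59 stayed within set limits. These were 1.5 times for counts and the SD between libraries for the share of TPM. For the biological coefficient of variation the limit was the SD of its own values with each library left out in turn, 1.26%. The limit for counts is wide: 1177 lncRNAs at 2 TPM, against 1723, stayed within it. Staying within it therefore does not show that a count was stable. Some other values could not leave their limits. Rescaling a library leaves the shares within a family unchanged. Leaving out 1 library moves the mean share of a fixed set of genes by less than the SD between libraries. The limit for the biological coefficient of variation came from values that it judged. The 59 are therefore no measure of stability. The share of TPM in the 100 most abundant genes was 27.4%; it was 28.5% with only coding and lncRNA genes in the denominator, 29.8% without mitochondrial genes, 29.8% with effective lengths and 21.7% with the median GENCODE 29 transcript length, an alternative chosen after seeing the data. Leaving out one library gave 27.4% to 27.6% for that share, 4.15% to 6.62% for the biological coefficient of variation, 13054 to 13097 expressed coding genes, 1855 to 1865 expressed lncRNAs and 99 to 102 lineage genes under 1 TPM. Thresholds of 0.5 and 2 TPM gave 13670 and 12148 coding genes and 2353 and 1177 lncRNAs. Families led by 1 isogene numbered 19 when counts were not divided by length, against 26. The cause of these shifts was not tested. Depth limits genes under about 10 counts: 319 of the 14701 expressed genes had under 10 counts in at least 1 library.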

Other observations

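Signalling molecules outside the lists above were uneven in the control cells. Of 41 chemokine genes 9 were expressed, and CXCL12, the ligand of the receptor CXCR4, stood far above the others at 415 ± 15.8 TPM, followed by CXCL5 at 41.4 ± 2.04 TPM. CXCR4 itself had 1.80, 0.897 and 0.573 TPM. Of 65 protocadherins 23 were expressed, led by PCDH1 at 269 ± 14.3 TPM. Of 376 solute carriers 240 were expressed (63.8%, near the 65.0% of all coding genes), and the leading ones were the amino acid transporters SLC3A2, SLC7A5 and SLC1A5 at 1011 ± 28.2, 776 ± 13.8 and 771 ± 10.3 TPM. WNT ligands were low, with 5 of 19 expressed and WNT5B first at 8.20 ± 0.661 TPM, while 9 of 10 Frizzled receptors were expressed.

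Most members of the lists of acute responses passed 1 TPM, as did 65.0% of all coding genes. Passing that threshold does not show that a response was active. Immediate early genes had 23 of 25 members expressed, with IER2 at 386 TPM, EGR1 at 30.5 ± 3.48 TPM and FOS at 11.5 ± 0.270 TPM. Heat shock genes had 20 of 20 expressed, led by HSP90AB1 at 2645 ± 131 TPM, and the inducible HSPA1A was at 1.85 ± 0.257 TPM, with 67.9% of its sequence windows shared with other genes. All 25 sterol synthesis genes were expressed. The hypoxia and glycolysis list had 23 of 24 expressed, and the hypoxia target CA9 stood at 1.96 TPM. Of 13 genes for metallothioneins and zinc handling 11 were expressed, and 24 of 25 housekeeping genes were, the exception being SDHA.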
